A study of Mus musculus with 3 samples.

Results

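The 8 genes described here encode the 4 myogenic basic helix-loop-helix (bHLH) factors (Myod1, Myog, Myf5 and Myf6), 3 of the MEF2 factors (Mef2a, Mef2c and Mef2d) and the paired box factor Pax7. They were taken by gene symbol out of 24481 gene rows, and each symbol stood on 1 row. The muscle came from outbred ICR mice of postnatal day 42, and there were 3 libraries. One came from mice with exercise and a treatment labelled SQH, one from an exercise control and one from a control without an exercise label. The study title names leaf extracts of the bamboo Sasa quelpaertensis and fatigue. The labels give no dose, no exercise protocol, no muscle name and no number of animals per library.

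Messenger RNA was read from the 3' end, next to the poly(A) tail, so a transcript gives reads from 1 end whatever its length. Each deposited value is a log2 level adjusted for library size. Low linear values bunch at multiples of a step that stands for about 1 read, which gives about 12.4, 8.12 and 10.8 M reads for exercise plus SQH, exercise control and control. With 1 library per group there is no replicate and no p-value, and a difference between libraries cannot be told from a difference between animals. The ± beside a value is the standard error of counting reads alone. A gene was called higher or lower at a 2-fold difference (1 on the log2 scale) when its mean linear level over the 3 libraries was at least 66.5, a minimum that 7857 of the 15714 rows above 0 passed. Of the 8 genes 6 passed it, and Myf5 and Mef2d did not.

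All 11 skeletal muscle defining genes, such as Acta1 and Ckm, were detected in every library, and their summed linear level on the log2 scale was 20.16 with SQH, 19.98 in the exercise control and 20.07 in the control. The exercise control library stood apart from both others. Its 16 slow-fibre contractile genes summed to 16.07, against 18.84 with SQH and 19.17 in the control, while its 10 nerve and Schwann cell markers summed to 12.14, against 10.45 and 10.39. For that library the makeup of the muscle and the group cannot be told apart, and in whole tissue less RNA per cell of a type cannot be told from fewer such cells. That library enters 2 of the 3 comparisons below, so those comparisons are not independent.

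The bHLH factors bind the E-box, a short DNA element, together with E proteins such as those of Tcf3 and Tcf12, and turn on genes of muscle differentiation. Pax7 marks satellite cells, the stem cells of muscle; Myf5 and Myod1 act early, in myoblasts, Myog drives terminal differentiation, and Myf6 (MRF4) is the member known for its abundance in adult fibres. In rodents Myog is known to be more abundant in slow muscle and after denervation, and Myod1 in fast muscle. MEF2 factors bind an A and T rich element, cooperate with the bHLH factors and are held in check by class IIa histone deacetylases.

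Mef2c had by far the highest level of the set. It stood at 14.28 with SQH, 14.27 in the exercise control and 14.85 in the control, which placed it 47th, 42nd and 36th from the top among 15714 rows. Mef2a came next in each library and Myog after it, followed by Myf6. Below them the order was not resolved everywhere. Pax7 and Myod1 with SQH (6.34 each), Myod1 and Pax7 in the exercise control, and Myf6 and Pax7 in the control lay within the 95% counting interval of each other. The same held for Mef2d and Myf5 with SQH and for Pax7 and Mef2d in the exercise control. No length correction was applied, since reads come from 1 end of each transcript, and levels of different genes also depend on how well each 3' end was captured.

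**Figure D1:**
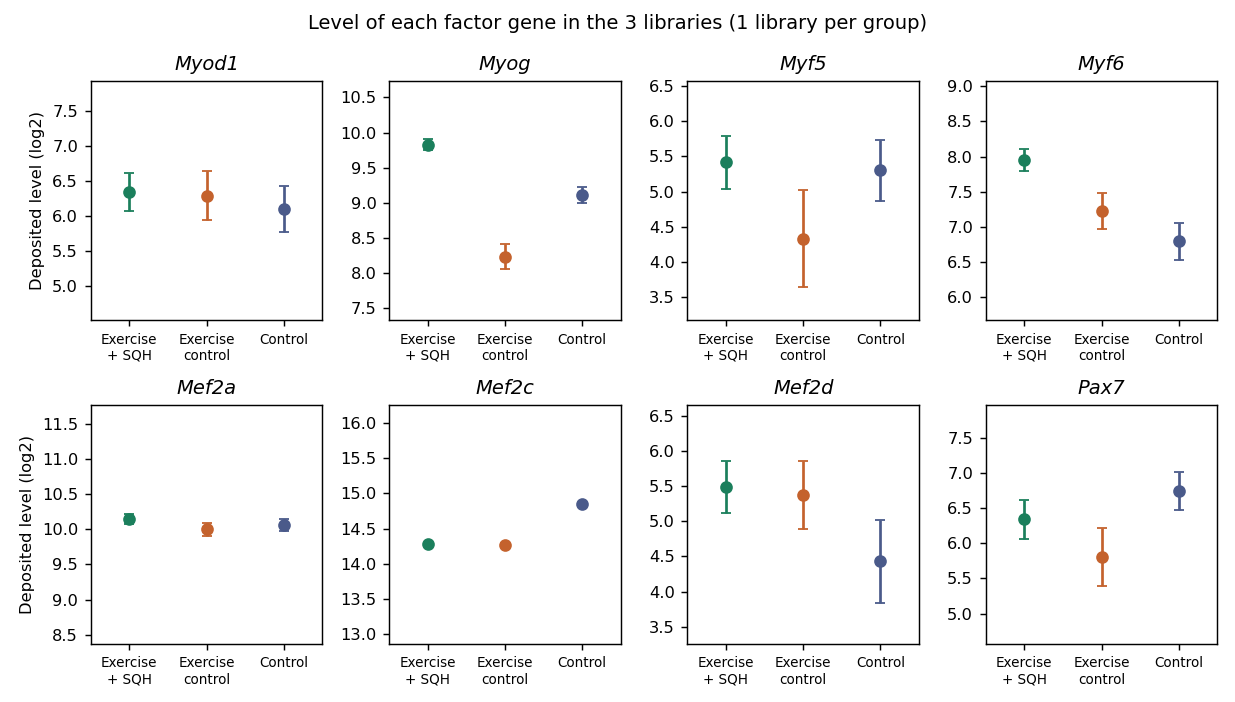
Deposited log2 level (vertical axis, each panel spanning the same range of 3.4) of the 8 genes in the 3 libraries, with 95% counting intervals as bars and 1 library per point. Myog is highest with SQH (9.83) and lowest in the exercise control (8.24), Mef2a lies near 10 in all libraries, and Mef2c is higher in the control (14.85) than in the others.

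Myog, which encodes myogenin, differed most among the genes past the minimum. Its level was 9.83 with SQH, 8.24 in the exercise control and 9.11 in the control, from about 1188, 254 and 588 reads. The SQH library was thus the highest and the exercise control the lowest, with no overlap of their counting intervals. Relative to the exercise control, Myog was called higher with SQH by 1.59 ± 0.10, a 3.02-fold difference. Of all tested rows 2.01% differed by at least as much in that comparison. Against the control the differences were -0.87 ± 0.11 for the exercise control and 0.72 ± 0.07 for SQH, neither of which reached 2-fold. Myog lies on chromosome 1 of the mouse build GRCm38, from 134289989 to 134292548 on the plus strand (ENSMUSG00000026459.5), and shares no exonic base with another annotated gene.

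The promoter of Myog is known for an E-box and a MEF2 site close to the start, through which both families act on it, and it is shown because Myog is the gene with the largest called difference. The promoter of Mef2a, whose level hardly differed between libraries, is set beside it. Each covers 250 bases before the annotated start and 50 after it (RefSeq, GRCm38.p6), Myog at chr1:134289754-134290053 on the plus strand and Mef2a at chr7:67372809-67373108 on the minus strand. Capitals mark matches to the E-box, CANNTG, and to a MEF2 motif searched on both strands as CTANNNNTA with A or T at each N.
Myog: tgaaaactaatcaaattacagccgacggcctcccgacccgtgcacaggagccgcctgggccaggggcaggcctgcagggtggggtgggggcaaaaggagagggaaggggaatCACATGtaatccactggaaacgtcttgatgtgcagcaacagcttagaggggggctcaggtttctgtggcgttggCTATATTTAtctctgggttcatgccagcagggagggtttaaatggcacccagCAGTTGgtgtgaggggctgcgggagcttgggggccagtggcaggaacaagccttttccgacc
Mef2a: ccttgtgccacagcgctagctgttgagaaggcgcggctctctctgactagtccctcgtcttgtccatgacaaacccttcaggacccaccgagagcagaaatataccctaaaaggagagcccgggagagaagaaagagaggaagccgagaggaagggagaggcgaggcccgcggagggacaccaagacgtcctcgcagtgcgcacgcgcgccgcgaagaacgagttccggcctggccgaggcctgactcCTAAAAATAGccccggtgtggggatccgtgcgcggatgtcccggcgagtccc
In the Myog promoter an E-box of the letters CACATG begins 138 bases before the start and another, CAGTTG, begins 12 bases before it. Between them the MEF2 match CTATATTTA begins 64 bases before the start. These distances are from the RefSeq start. The GENCODE gene span given above for Myog begins upstream of that start, at 134289989, and takes in the letters CAGTTG. In the Mef2a promoter the MEF2 motif matched on both strands, in overlapping letters, across the start itself, and no E-box was found. Of 32851 promoters of this length, 72.3% hold an E-box, 3.60% hold the MEF2 motif and 2.72% hold both, so an E-box alone is common. Promoters were at hand for 6 of the 8 genes, Myod1 and Myf6 being the others. These are letter matches, and the libraries hold no measurement of binding.

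Myf6 followed another course. It stood at 7.96 with SQH, 7.22 in the exercise control and 6.79 in the control, from about 324, 126 and 118 reads. The SQH library was highest here too, but the lowest was the control. Myf6 was called higher with SQH than in the control, by 1.16 ± 0.16 or 2.24-fold, and 1.69% of tested rows differed by at least as much. It was higher by 0.73 ± 0.15 than in the exercise control, and the exercise control lay 0.43 ± 0.18 above the control, neither of which was called. Myf6 lies on chromosome 10 from 107492853 to 107494737 on the minus strand, with 6718 bases between it and Myf5 downstream on the same strand.

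Myod1, which encodes MyoD, stood at 6.34 with SQH, 6.29 in the exercise control and 6.10 in the control. Its 3 values lay within counting error of each other, and its differences were 0.05 ± 0.23 for SQH against the exercise control, 0.24 ± 0.22 for SQH against the control and 0.19 ± 0.25 for the exercise control against the control. From about 106, 66 and 73 reads, the 95% counting intervals of these differences reach at most 0.67, so a 2-fold difference in Myod1 between these libraries lies outside them.

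Pax7 and Myf5, both genes of satellite cells, had their lowest values in the exercise control library, whereas Myod1 did not. Pax7 stood at 6.34 with SQH, 5.80 in the exercise control and 6.74 in the control, from about 106, 47 and 114 reads. Its difference of -0.94 ± 0.25 in the exercise control against the control did not reach 2-fold, and those of SQH were 0.54 ± 0.25 against the exercise control and -0.40 ± 0.19 against the control. Myf5 stood at 5.42 with SQH, 4.33 in the exercise control and 5.30 in the control, from about 56, 17 and 42 reads. It was under the expression minimum and is not counted as called, although SQH exceeded the exercise control by 1.09 ± 0.40, and its difference in the exercise control against the control was -0.97 ± 0.42.

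Among the MEF2 genes, Mef2c had a higher level in the control than in both other libraries. Its difference from the control was -0.59 ± 0.01 in the exercise control and -0.58 ± 0.01 with SQH, while the SQH and exercise control libraries differed by 0.01 ± 0.01. The small errors come from about 25917, 16607 and 31538 reads and cover counting alone, and neither difference from the control reached 2-fold. Quantile normalization gave -0.28 and -0.49 for these 2 differences. Mef2a stood at 10.15 with SQH, 9.997 in the exercise control and 10.06 in the control, and its differences were at most 0.15 ± 0.06. Mef2d stood at 5.48 with SQH, 5.38 in the exercise control and 4.43 in the control, from about 58, 35 and 23 reads. It was under the expression minimum, with a difference of 1.05 ± 0.36 for SQH against the control and 0.94 ± 0.39 for the exercise control against the control.

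Mef2d and Mef2a share exonic bases with a gene of the opposite strand at their 3' end, and strand handling is not given in the sources used here. Mef2d (chromosome 3, 88142372 to 88172086) shares 531 bases with the non-coding gene 1700113A16Rik, whose level of 11.05 with SQH, 10.61 in the exercise control and 10.67 in the control lay far above that of Mef2d. Reads of both genes cannot be told apart in that stretch. The level of Mef2d, its place in the order, its standing under the minimum and its differences are therefore uncertain. Mef2a (chromosome 7, 67231163 to 67372858) shares 302 bases with Lysmd4, which stood at 7.04, 7.13 and 6.94 in the same order, well below it. Mef2c (chromosome 13, 83504034 to 83667080), Pax7 (chromosome 4, 139737062 to 139833528), Myod1 (chromosome 7, 46376474 to 46379099) and Myf5 (chromosome 10, 107482908 to 107486134) share none.

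**Figure D2:**
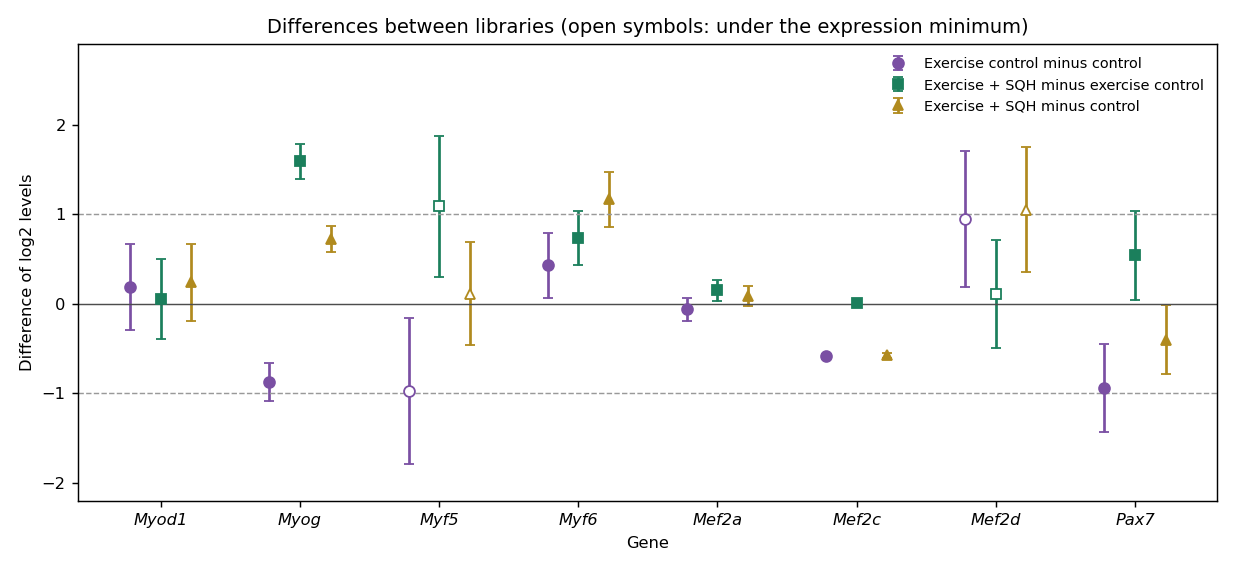
Differences of log2 levels (vertical axis) for each gene (horizontal axis) in the 3 comparisons, with 95% counting intervals as bars, dashed lines at 2-fold and open symbols for genes under the expression minimum. Filled symbols lie beyond a dashed line for Myog in SQH against the exercise control (1.59) and for Myf6 in SQH against the control (1.16).

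The first comparison, exercise control against control, sets the exercise control library beside the control library. None of the 6 genes past the minimum was called, against 8.29% of the 7857 rows tested. At a 1.5-fold threshold 3 of the 6 passed (Myog, Pax7 and, at its very edge, Mef2c), as did 25.6% of the rows. Over all 8 genes the median difference was -0.33, with 3 above 0 and 5 below, and the median of all tested rows was -0.05. The lowest was Myf5 (-0.97) and the highest Mef2d (0.94), both under the minimum.

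The second comparison, exercise plus SQH against exercise control, sets exercised muscle with the treatment beside exercised muscle without it. Treatment, animals and the makeup of the muscle cannot be told apart in it. Myog was the 1 gene of 6 called, against 8.01% of all tested rows called in either direction and 5.68% called higher. At 1.5-fold 2 genes passed (Myog and Myf6), as did 24% of the rows. All 8 differences were above 0, from 0.01 for Mef2c to 1.59 for Myog, with a median of 0.35, where all tested rows had a median of 0.03. Those of Mef2c, Myod1 and Mef2d are close to 0, and each changed sign under at least 1 other scaling.

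Exercise plus SQH against the control leaves the exercise control library out. Myf6 was the 1 gene of 6 called, against 3.02% of all tested rows called in either direction and 1.76% called higher. At 1.5-fold 2 genes passed (Myog and Myf6), as did 13.8% of the rows. All 4 bHLH genes lay above 0, by 0.11 (Myf5) to 1.16, with a median of 0.48, while Mef2c (-0.58) and Pax7 (-0.40) lay below. The median of all tested rows was -0.02. With 6 genes tested, a single call in either comparison is a count too small to set against these shares.

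**Figure D3:**
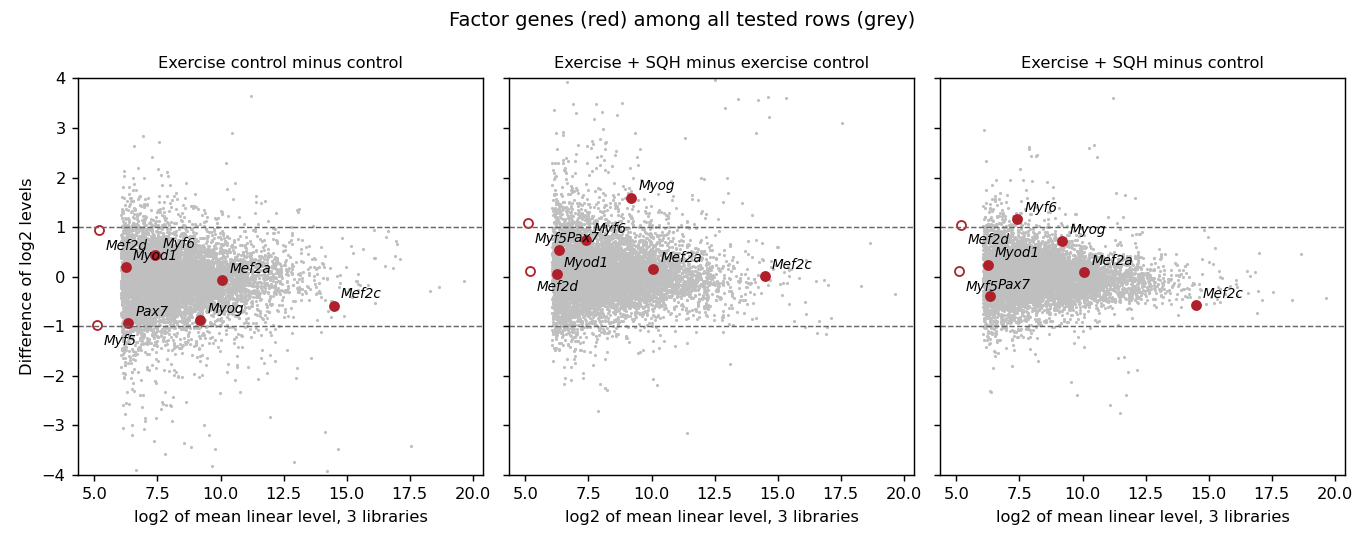
Difference of log2 levels (vertical axis, limited to 4 in either direction, which leaves out 13, 10 and 1 rows from left to right) against the log2 of the mean linear level (horizontal axis) for all tested rows in grey and the 8 genes in red, open where under the minimum. Myog (1.59) lies above the upper dashed line in the middle panel and Myf6 (1.16) in the right panel, and Mef2c lies below 0 in the left and right panels.

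The makeup of the bHLH transcripts within a library does not depend on any single factor by which a library is scaled. Myog made up 71.0% of the summed linear level of the 4 bHLH genes with SQH (Wilson 95% interval 68.7 to 73.1), 54.9% in the exercise control (50.4 to 59.5) and 71.6% in the control (68.4 to 74.6). The exercise control was thus the library with the smaller Myog share, and the intervals of the others overlapped. Myf6 took 19.4% with SQH, 27.2% in the exercise control and 14.4% in the control. Myod1 took 6.32%, 14.2% and 8.90%, and Myf5 between 3.33% and 5.13%. The shares are parts of a whole, so a smaller Myog share makes the others larger. The level of Myod1 itself lay within counting error across the libraries. Intervals cover counting error only.

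Expressed as a ratio, Myog exceeded Myod1 by 3.49 ± 0.15 log2 units with SQH, 1.95 ± 0.20 in the exercise control and 3.01 ± 0.18 in the control. The ratio differed by -1.06 ± 0.27 in the exercise control against the control, by 1.54 ± 0.25 in SQH against the exercise control and by 0.48 ± 0.23 in SQH against the control. The low Myog to Myod1 ratio was that of the library with the low slow-fibre sum of 16.07, and the part of fibre makeup in it was not tested.

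**Figure D4:**
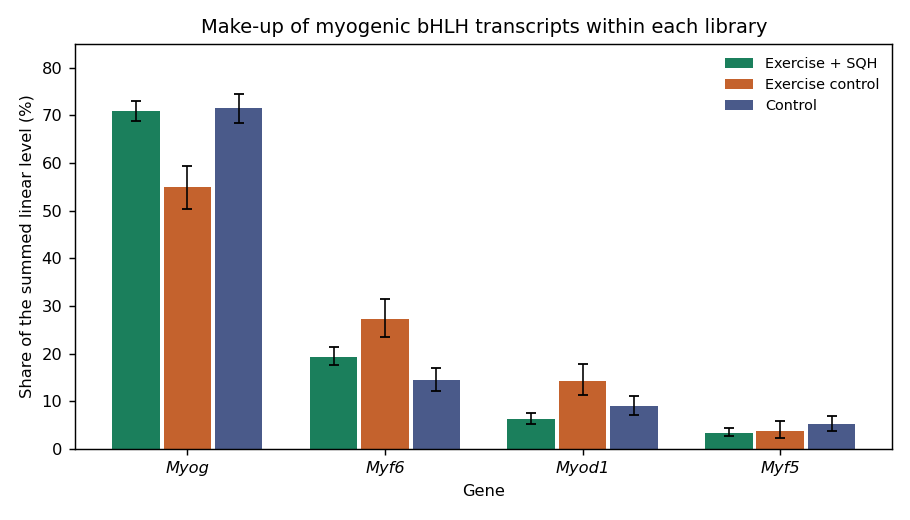
Share of the summed linear level of the 4 bHLH genes (vertical axis, percent) held by each gene in each library, with Wilson 95% counting intervals. The Myog bar is lower in the exercise control (54.9%) than with SQH (71.0%) or in the control (71.6%), and the Myf6 and Myod1 bars are highest in the exercise control.

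Among the partners and inhibitors of the bHLH factors, none of the 3 E protein genes was called in any comparison. The farthest was Tcf3 at 5.57 with SQH, against 6.33 in the control (-0.76 ± 0.24). Of the 7 inhibitor genes past the minimum, Msc, which encodes musculin, a bHLH repressor, was called in 2 comparisons, where 8.29% and 8.01% of all tested rows were called. It stood at 6.62 with SQH, 5.05 in the exercise control and 6.51 in the control, with a difference of -1.46 ± 0.31 for the exercise control against the control and 1.56 ± 0.30 for SQH against the exercise control. Msc shares 539 exonic bases with a non-coding gene of the opposite strand. Id1, Id2 and Id3, whose proteins capture E proteins, were not called. Of the 14 upstream and partner factor genes past the minimum 1 was called, and only in SQH against the exercise control. In that comparison 8.01% of all tested rows were called, so the count is near that share. The gene was Srf, which encodes serum response factor. It stood at 9.45 with SQH, 8.27 in the exercise control and 8.67 in the control, higher with SQH than in the exercise control by 1.18 ± 0.10.

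The 20 tested regulators of MEF2 include both repressors and activators. Their median was -0.05 in the exercise control against the control, beside -0.045 over all tested rows. In SQH against the control it was 0.14, beside -0.015. The median in SQH against the exercise control was 0.38, beside 0.026 over all tested rows, with 13 genes above 0 and 7 below. In that comparison 3 of the 20 were called higher, against 5.68% of all tested rows. They were Sik1, a kinase that acts on class IIa histone deacetylases (1.402 ± 0.17), Rcan1, a calcineurin inhibitor that calcineurin signalling itself induces (1.39 ± 0.05), and Mapk14, which encodes p38alpha, a kinase of MEF2 proteins (1.30 ± 0.18). In the exercise control against the control Rcan1 was called lower (-1.02 ± 0.06) and Nfatc1, a calcineurin-dependent transcription factor gene, higher (1.06 ± 0.10). Nfatc1 stood at 9.47 with SQH and 9.48 in the exercise control, against 8.42 in the control, and was the 1 gene of the list called in SQH against the control (1.04 ± 0.09). Of all tested rows 8.29% were called in the exercise control against the control and 3.02% in SQH against the control. The deacetylase genes Hdac4, Hdac5, Hdac7 and Hdac9 were not called in any comparison. The fourth MEF2 gene, Mef2b, stood at 1.94 with SQH, 1.27 in the exercise control and 2.92 in the control, a level of a few reads.

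Of the genes that the bHLH factors are known to act on, 15 were past the minimum. Of these 3 were called higher and 0 lower with SQH against the exercise control, 0 and 2 in the exercise control against the control, and 1 and 2 in SQH against the control. The list medians were 0.31, -0.19 and 0.18 in that order, against 0.026, -0.045 and -0.015 over all tested rows. In the same order 8.01%, 8.29% and 3.02% of all tested rows were called in either direction. The 3 genes called higher with SQH against the exercise control were Mybph (2.70 ± 0.17), Casq2 (1.93 ± 0.07) and Actc1 (1.095 ± 0.13). Actc1, the cardiac actin gene of developing muscle, stood at 8.61 with SQH and 7.52 in the exercise control, against 11.00 in the control. Cdkn1c, a cell cycle inhibitor gene, was called lower with SQH than in the control (-1.12 ± 0.15). Casq2, the slow-fibre calsequestrin gene, was called lower in the exercise control (-2.33 ± 0.07 against the control). Mybph stood at 9.32 with SQH, 6.62 in the exercise control and 6.89 in the control and was called higher with SQH than in the control (2.44 ± 0.14). It shares 1162 exonic bases with Adora1 on the opposite strand, which stood at nearly the same levels (9.35, 6.62 and 6.90), so reads of these genes cannot be told apart.

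Of the acetylcholine receptor and denervation genes, in which Myog is a known activator, 12 passed the minimum. Chrna1, the receptor alpha subunit gene and a known Myog target, stood at 10.51 with SQH, 8.66 in the exercise control and 10.17 in the control. It was called lower in the exercise control (-1.51 ± 0.09 against the control) and higher with SQH (1.85 ± 0.08 against the exercise control), and like Myog it was highest with SQH and lowest in the exercise control. Dach2, which encodes a repressor of Myog in innervated muscle, also had its lowest value in the exercise control (5.002, against 6.29 with SQH and 6.79 in the control). Lrp4, the agrin receptor gene, was called higher with SQH than in the exercise control (1.73 ± 0.23). Runx1 was higher in both exercised libraries, at 6.69 with SQH and 6.49 in the exercise control, against 4.37 in the control, and so was Gadd45a. Musk, the receptor kinase gene of the synapse, was called higher with SQH than in the control (1.04 ± 0.16). In all 3 genes were called higher and 2 lower in the exercise control against the control, 3 and 0 in SQH against the exercise control, and 3 and 0 in SQH against the control, with medians of -0.25, 0.32 and 0.59. Of all tested rows 8.29%, 8.01% and 3.02% were called in either direction in that order, and their medians were -0.045, 0.026 and -0.015. Runx1, Gadd45a and, in other lists, Spry1 and Cdkn1c share exonic bases with a gene of the opposite strand.

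The 27 MEF2 targets of adult muscle had list medians of 0.04 in the exercise control against the control, -0.18 in SQH against the exercise control and 0.11 in SQH against the control. Called were 2 higher and 2 lower, 3 higher and 0 lower, and 1 higher and 0 lower. Of all tested rows 8.29%, 8.01% and 3.02% were called in either direction in that order, and their medians were -0.045, 0.026 and -0.015. Ppargc1a, the gene of the coactivator PGC-1alpha, was the gene called in SQH against the control (1.65 ± 0.04). The orphan receptor gene Nr4a1 (-1.07 ± 0.11) and Myoz2, a slow-fibre gene (-2.05 ± 0.03), were called lower in the exercise control against the control. Pygm (1.02 ± 0.02) and Myoz1, a fast-fibre gene (1.01 ± 0.02), were called higher there. The fast-fibre contractile list had medians of 0.42, -0.76 and -0.27 in the same order, and the slow-fibre list -3.39, 2.9985 and -0.33.

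**Figure D5:**
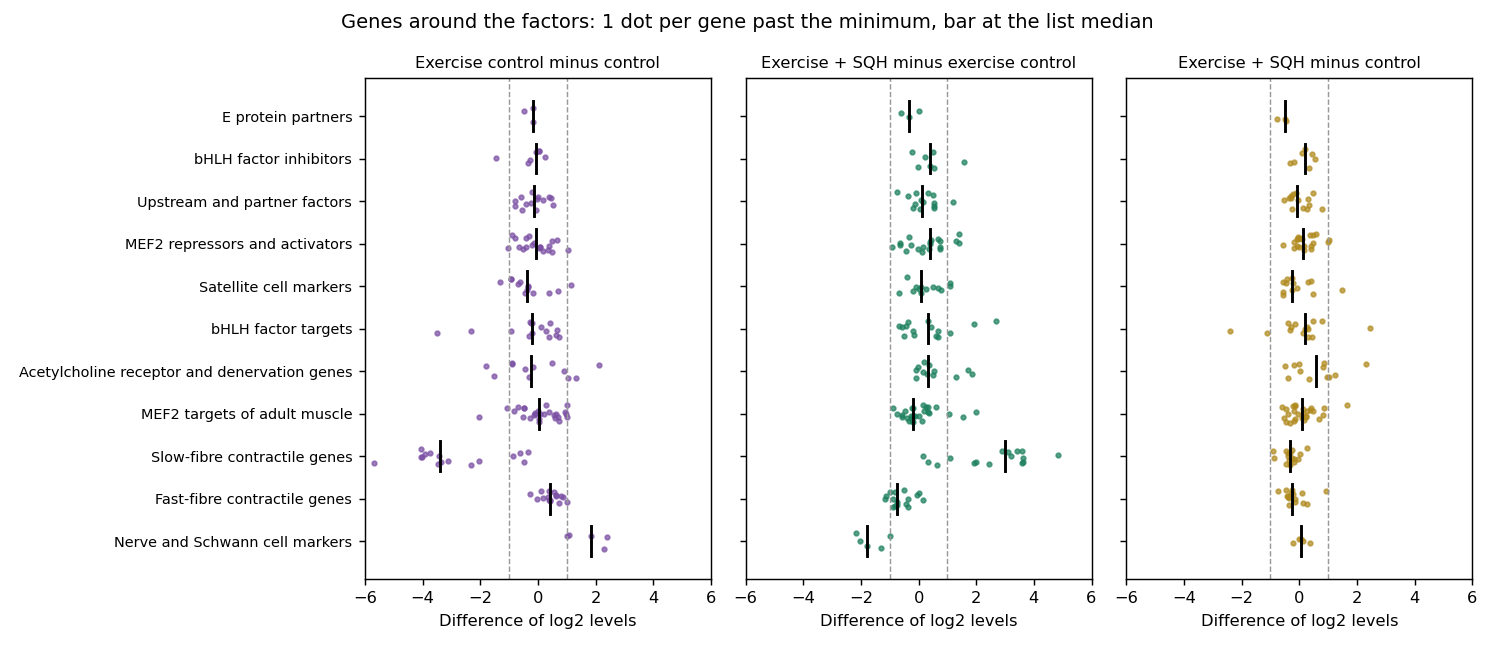
Differences of log2 levels (horizontal axis) of single genes past the minimum in 11 gene lists (vertical axis) for the 3 comparisons, with black bars at the list medians and dashed lines at 2-fold. The slow-fibre median lies at -3.39 in the left panel and 2.9985 in the middle one and the nerve median at 1.85 and -1.79, while the lists of partners, regulators and targets have medians between -0.51 and 0.59.

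Other satellite cell markers gave a mixed account beside Pax7 and Myf5. All 20 were above 0 in every library, and their summed level on the log2 scale was 13.05 with SQH, 12.98 in the exercise control and 13.17 in the control. Dag1 weighs most in this sum, at 11.81, 11.74 and 12.07 in the same order. Of the 13 past the minimum, 10 lay below 0 in the exercise control against the control, with a median of -0.38. Spry1, an inhibitor gene of growth factor signalling, was called lower (-1.30 ± 0.29) and Chodl higher (1.16 ± 0.07). With SQH against the exercise control Sdc4 (1.10 ± 0.07) and Spry1 (1.09 ± 0.29) were called higher. In SQH against the control 9 of the 13 lay below 0, with a median of -0.25, and the 1 gene called was Cdh15, the M-cadherin gene, which was higher (1.49 ± 0.25). Of all tested rows 8.29%, 8.01% and 3.02% were called in these 3 comparisons, in the order given. Most of the 20 markers are also expressed by other cells of muscle. Of 16 cell cycle genes 1 passed the minimum, Ccna2, which shares 510 exonic bases with Exosc9, and Ccnb1 and Aurkb were at 0 in all libraries, so dividing myoblasts could not be assessed at this depth.

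Mef2c is also expressed by cells of vessels. The 10 smooth muscle and pericyte markers summed to 12.52 with SQH and 12.76 in the exercise control, against 13.21 in the control. Rgs5, a pericyte gene, stood at 10.88 and 11.01, against 12.50 in the control, and was called lower in both comparisons with the control. A sum without Rgs5, added after its values were seen, was 11.96 with SQH and 12.25 in the exercise control, against 11.85 in the control. Of the 9 markers past the minimum 5 lay above 0 and 4 below in the exercise control against the control (median 0.015), and 4 above and 5 below in SQH against the control (median -0.06). The 11 endothelial markers summed to 12.31, 12.53 and 12.51. The part of vessel cells in the Mef2c level was not tested. The fibroblast and matrix list summed to 13.68, 13.99 and 13.43, the adipocyte list to 12.58, 11.93 and 12.29 (with Lep at 0 in all libraries) and the macrophage and leukocyte list to 8.97, 8.16 and 8.19 (with Cd3e, Cd79a and Ms4a1 at 0), in the order SQH, exercise control, control. Fabp4 weighs most in the adipocyte sum, at 12.19, 11.72 and 11.93. The number of genes past the minimum called higher and lower in the exercise control against the control was 5 and 0 of 5 nerve markers, 0 and 1 of 8 endothelial, 1 and 1 of 9 smooth muscle and pericyte, 1 and 0 of 9 fibroblast and 0 and 2 of 4 adipocyte markers. In SQH against the exercise control it was 0 and 5 for nerve, 0 and 0 for endothelial, 0 and 1 for smooth muscle and pericyte, 1 and 0 for fibroblast and 3 and 0 for adipocyte markers. In SQH against the control only Rgs5 (lower) and the adipocyte gene Cfd (higher) were called in these 5 lists. Of all tested rows 8.29%, 8.01% and 3.02% were called in these 3 comparisons, in the order given. The 1 macrophage marker past the minimum, C1qa, was not called in any comparison.

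The genes whose 3 centred values lay nearest to those of Myog among 7845 genes were Rbm15b, Gosr1 and Mbd2, at a root mean square distance of 0.03, 0.03 and 0.05 log2 units. For Myf6 they were Bmpr1b, Slc39a13 and Snhg3, each at 0.02 to 0.03. In the exercise control the counting error was 0.09 for Myog alone and 0.13 for Myf6 alone, which is larger than these distances. Rbm15b stood at 6.70 with SQH, 5.16 in the exercise control and 5.97 in the control, and Gosr1 at 6.82, 5.16 and 6.06. Both lie near the expression minimum. Within 0.1 of the pattern there were 20 genes for Myog and 23 for Myf6. Rbm15b, Slc39a13 and Snhg3 share exonic bases with a neighbour. With 3 libraries such likeness is a description of 3 values.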

How the data were processed

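Libraries were made with the Lexogen QuantSeq 3' kit from 500 ng of total RNA, per the labels' protocols. Bowtie2, edgeR and the build mm10 are named, without versions or roles, per the submitters' processing notes. Which counter, annotation, strand setting and filters were used was not given in the sources used here, and the scaling of the deposited log2 values, 1 library per file, was worked out from the values. Linear values up to 9 bunched at multiples of 0.766 (SQH), 1.19 (exercise control) and 0.939 (control), with 84.4%, 95.7% and 100% of them within 0.2 step. Reads are therefore approximate, no count model was fitted, and a 0 may hide 1 read.

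The size rule (2-fold, mean linear level of at least 66.5) stood in for a test. The mean takes in all 3 libraries, so a gene near the minimum can pass it only through libraries where it is high. Cdh15, Runx1, Msc, Dach2 and Spry1 are such genes, and so are Rbm15b, Gosr1 and Mbd2. Counting errors are those of the ratio of 2 Poisson counts, with 95% intervals. The rule was also run on simulated libraries with counting noise alone. That run cannot show how often differences between animals pass the rule. The 8 genes and 18 lists of partners, regulators, targets and markers (258 genes, 253 found, 177 past the minimum) were chosen with earlier results of these data known. Up to 4 called genes per list and comparison, or the 1 farthest where none was called, were eligible to be named. Mef2b, the Id and Hdac genes, the listed genes at 0 and overlapping neighbours were named after their values were seen. Gene positions and exon overlaps come from GENCODE M21 (GRCm38, the assembly of mm10), which holds 95.7% of the symbols. Alternatives were 3 other scalings, an added constant, 2 other expression minimums and a 1.5-fold threshold. Python 3.11.15, pandas 2.3.3 and scipy 1.17.1 were used.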

Additional observations from a re-analysis of the deposited data

How the results depend on the processing

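The call of Myog in exercise plus SQH against the exercise control held under all 7 alternatives. Not all of them could have removed it. The 1.5-fold threshold and the absent minimum are looser than the rule and cannot undo any call. The minimum at the upper quartile leaves differences as they are, and the mean linear level of Myog (588) lies above it. The call of Myf6 in exercise plus SQH against the control held under all but the minimum at the upper quartile (271), which Myf6 does not reach and which left 0 calls. With no expression minimum 2 genes were called in SQH against the exercise control (Myog and Myf5) and 2 in SQH against the control (Myf6 and Mef2d). With a 1.5-fold threshold, which 25.6%, 24% and 13.8% of all tested rows passed in the 3 comparisons, the counts were 3 in the exercise control against the control (Myog, Mef2c and Pax7), 2 in SQH against the exercise control and 2 in SQH against the control (Myog and Myf6 in both). Of 24 differences 20 kept their sign under the 3 scalings and the added constant of 8. The others were Mef2a in the exercise control against the control (-0.06 to 0.02) and, in SQH against the exercise control, Myod1 (-0.02 to 0.05), Mef2c (-0.21 to 0.01) and Mef2d (-0.03 to 0.10). The 7 of 96 recomputed values beyond the counting interval were all of Mef2c. Of 378 recomputed list counts 294 lay within 1.5 times of the reported one. No library can be left out of a group of 1. No paired analysis was possible because each group has 1 library and the labels carry no replicate number. From 17 to 58 reads per library, Myf5 and Mef2d had counting standard errors of 0.29 to 0.42. The 95% intervals are wider than these errors, and a difference whose interval held 0 was not resolved. For Myf5 in SQH against the control the interval ran from -0.47 to 0.69.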
